A study of Mus musculus with 12 samples.

Results

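The 38 genes described here act in excision repair, mismatch repair, direct reversal of base damage and translesion DNA synthesis. They were chosen by name, with no measured value in the rule, from the 24421 genes of an RNA-Seq count table of mouse embryonic fibroblasts (MEFs). Earlier results of these data were known when they were chosen. Each of the 38 symbols was found in the table and each passed the expression filter. The 12 libraries came from Null MEFs, the control genotype, and from TFEB/TFE3 DKO MEFs, in which CRISPR editing targeted the transcription factor genes Tfeb and Tfe3. Cells of either genotype were left untreated or were given 100 µM etoposide for 8 hr, with 3 libraries in each of the 4 groups. The labels call the controls untreated, whereas the paper gives them DMSO, calls the control genotype WT and describes the MEFs as immortalized with SV40. Each genotype was represented by 1 line, so a difference between the genotypes cannot be told apart from a difference between lines. The labels do not say that replicates came from separate cultures, and the p-values then measure only the spread between these samples. Counts on genes, rounded, were 83970200, 67654800 and 66956100 in the Null control libraries, 75454500, 76125300 and 63286200 in Null etoposide, 74826900, 104121000 and 66749600 in DKO control and 45577000, 68441400 and 94388700 in DKO etoposide. Levels are given in CPM, the count relative to the TMM-scaled library size, and log2 fold changes ± their standard error. An exact permutation test of 3 against 3 libraries cannot go below p = 0.10, so tests come from the fit across all genes.

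Nucleotide excision repair cuts out a short stretch of DNA around a bulky lesion, found either across the genome or where a transcribing polymerase stalls. Base excision repair removes a single damaged base with a glycosylase and then restores the strand, and mismatch repair corrects errors of replication. Translesion polymerases copy past damage that has not been removed. Etoposide traps topoisomerase II on DNA and gives single-strand and double-strand breaks, of which the double-strand breaks are mainly repaired by other pathways. Some excision repair genes, XPC among them, are known targets of p53 in human cells.

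The targeted gene Tfeb was measured at 38.9, 39.2 and 42.1 CPM in the Null control libraries and 4.60, 6.09 and 4.68 CPM in DKO control. After etoposide it was at 11.4, 10.2 and 10.4 CPM in Null and 1.92, 1.61 and 2.20 CPM in DKO MEFs. Every DKO library was below every Null library of the same treatment. Tfe3 was at 115, 109.9 and 114 CPM in Null control and 94.1, 93.1 and 91 CPM in DKO control, and at 68.5, 69.6 and 68.1 and 70.7, 71.2 and 63.4 CPM after etoposide. Transcripts counted on Tfe3 were thus still present in DKO MEFs, at log2 fold changes against Null of -0.29 ± 0.042 without etoposide and -0.0081 ± 0.042, not past the threshold, after it.

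The fibroblast label was checked with 11 markers, whose summed level was 7092, 7085 and 7191 CPM in the Null control libraries, 4053, 3964 and 3958 in Null etoposide, 11530.2, 12116 and 11592 in DKO control and 5243, 5337 and 5013 in DKO etoposide. Vim was the most abundant on average over the 12 libraries, and Vim, Col1a1, Col1a2 and Fn1 had group means of 525 CPM or more. Without etoposide 10 of the 11 were higher and 1 lower in DKO than in Null MEFs, beside 33.3% and 33.4% of all genes tested. The lower was Thy1, at 4.21 CPM in Null control and 0.0365 CPM in DKO control. After etoposide 9 were higher and 2 lower, beside 37.5% and 36.6%. Dcn and Lum had means of at most 2.72 CPM. With etoposide 9 of the 11 fell in Null and 10 in DKO MEFs, beside 37.2% and 31.5% of all genes tested. The 8 macrophage and blood markers summed to 18.1, 19.5 and 16.4 CPM in the Null control libraries, 81.3, 80.0 and 80.9 in Null etoposide, 9.33, 7.88 and 7.55 in DKO control and 15, 12.6 and 15.2 in DKO etoposide. Most of this was Cd14, while Adgre1 was at 0 in the control groups and had means of at most 0.0292 CPM in the treated ones. The 4 skeletal muscle markers summed to 2.24, 2.01 and 2.09 CPM in the Null control libraries, 33.6, 37.6 and 38.5 in Null etoposide, 0.316, 0.489 and 0.352 in DKO control and 2.57, 2.32 and 2.58 in DKO etoposide. Des made up most of it, with Myod1 and Myog at 0 in the control groups and Myf5 at 0 in all groups. The 6 epithelial markers, led on average by Krt8, summed to 2.68, 2.26 and 2.87 CPM in the Null control libraries, 3.32, 3.87 and 4.10 in Null etoposide, 5.10, 5.05 and 5.94 in DKO control and 2.57, 2.02 and 2.16 in DKO etoposide. The 4 endothelial markers, led on average by Tek, summed to 0.221, 0.0615 and 0.108 CPM in the Null control libraries, 2.89, 2.55 and 2.19 in Null etoposide, 0.211, 0.0543 and 0.134 in DKO control and 1.52, 0.888 and 0.894 in DKO etoposide. The 4 neural markers, led on average by Nes, summed to 397, 385 and 389 CPM in the Null control libraries, 424, 418 and 402 in Null etoposide, 239, 238 and 241 in DKO control and 219, 217 and 233 in DKO etoposide. The part of these marker differences in the results was not tested, and in bulk samples fewer cells of a type and less RNA per cell cannot be told apart.

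**Figure D1:**
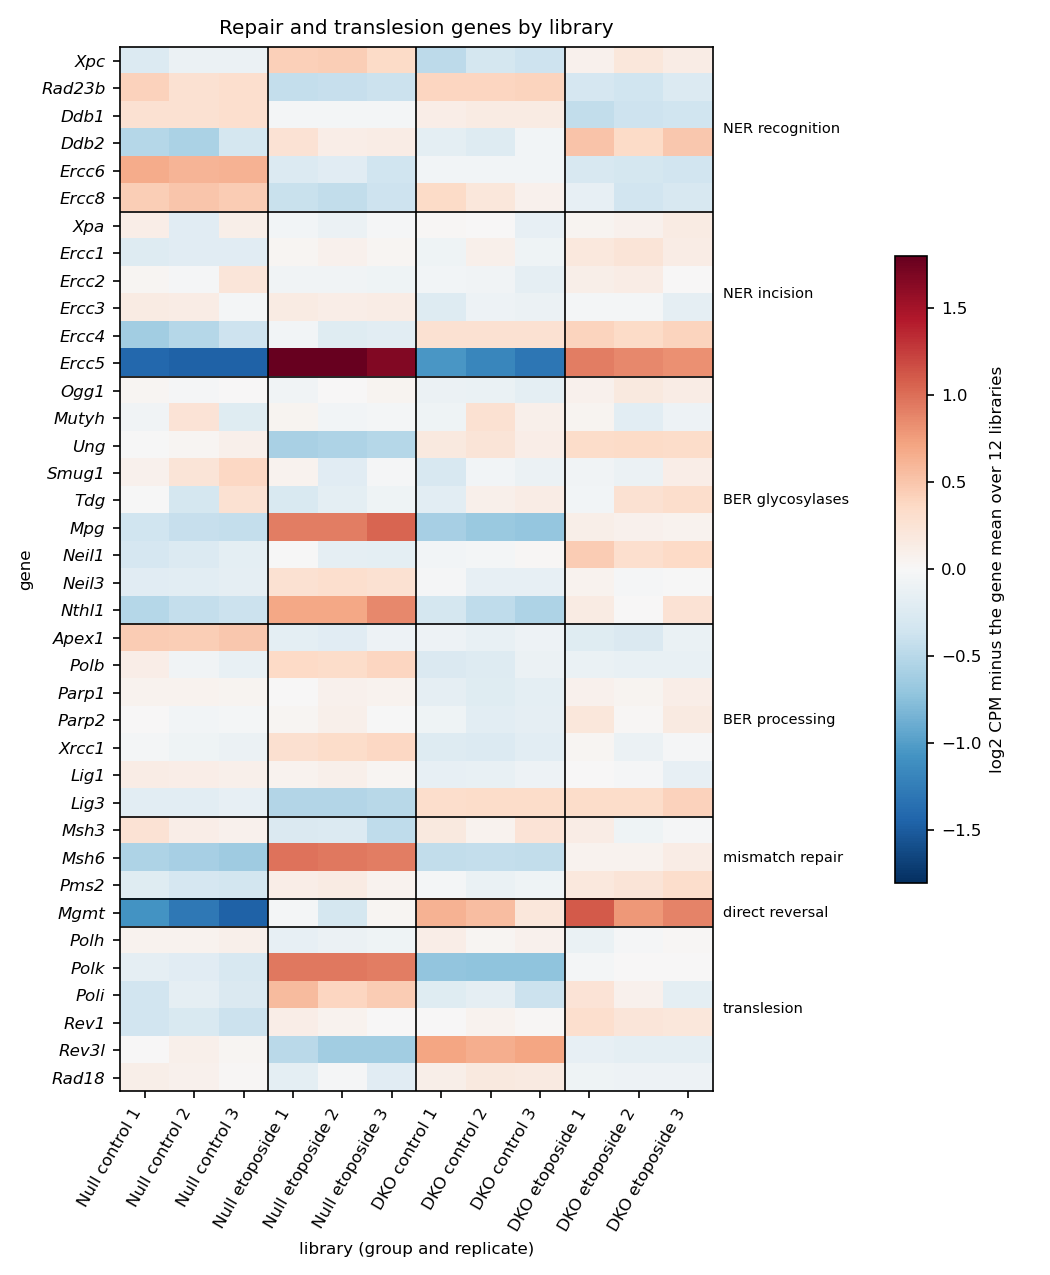
Heat map of the 38 genes (y axis, by role) in the 12 libraries (x axis), as log2 CPM minus each gene's mean over the libraries. Ercc5 shows the widest range, with all 3 Null etoposide libraries far above the Null control libraries, and for most genes the 3 libraries of a group have like shades.

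Etoposide changed the repair genes in both directions in Null MEFs. The nuclease gene Ercc5 rose about 9.20-fold, and Msh6, Mpg, Nthl1, Polk and Mgmt rose more than 2-fold. The largest falls, in Ercc6, Ercc8 and Rad23b, were smaller. Of the 38 genes, 16 were higher and 13 lower past the threshold of 0.05 (edgeR quasi-likelihood test, Benjamini-Hochberg adjusted), beside 42.3% higher and 37.2% lower among the 15220 genes tested. The shares of the 38, 42.1% and 34.2%, were near that background, and the median log2 fold change was 0.02 against 0.07 for all genes. Scaling by library size alone gave 22 higher and 9 lower, beside 7806 and 4396 of the 15220 genes tested. It shifted the median of all genes by 0.17.

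In DKO MEFs Ercc5 was again the gene with the largest rise, 4.12-fold, and it was the only one of the 38 past the threshold with a change of at least 2-fold. Mpg, Polk, Ddb2 and Nthl1 followed, and Rev3l and Rad23b had the largest falls. The test called 20 genes higher and 8 lower, beside 43.7% and 31.5% of all genes tested. The median log2 fold change was 0.17, against 0.14 for all genes. With library size alone the counts were 30 higher and 4 lower, beside 9316 and 3004 of the 15220 genes tested. That scaling shifted the median of all genes by 0.27. Rn45s, a ribosomal RNA gene whose reads enter the scaling, took a mean of 2.64% of counts on genes in Null control, 4.15% in Null etoposide, 1.84% in DKO control and 3.24% in DKO etoposide. Without Rn45s, Rmrp and Rpph1 the genes higher and lower numbered 16 and 13 in Null and 18 and 9 in DKO MEFs. Among the 15217 genes tested in that fit, 6398 and 5707 were higher and lower in Null and 6414 and 4972 in DKO MEFs. Ung and Ercc2 fell in Null and rose in DKO MEFs, although the fall of Ercc2 turned to 0.019 under library size alone and was lost without Null control replicate 3 (-0.09). The rise of Ercc2 in DKO MEFs was lost without DKO control replicate 3 (0.14), DKO etoposide replicate 1 (0.15) or DKO etoposide replicate 2 (0.14).

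The interaction term, which tests whether the change with etoposide differed between the genotypes, was past the threshold and below 0 (a smaller rise or a larger fall in DKO MEFs) for 14 genes and past it and above 0 for 11. Among all genes tested 24.4% were called below and 29.6% above 0. Ercc5 and Msh6 differed most, with interactions of -1.16 ± 0.079 and -1.03 ± 0.047, followed by Ung at 0.75 ± 0.062, Mgmt at -0.72 ± 0.22 and Mpg at -0.64 ± 0.063. The median over the 38 genes was -0.03 against 0.05 for all genes. With library size alone 8 genes were called below and 16 above 0, beside 3055 and 5734 of the 15220 genes tested. The median of all genes shifted by 0.10. Each of these 5 interactions kept its direction and call under that scaling.

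**Figure D2:**
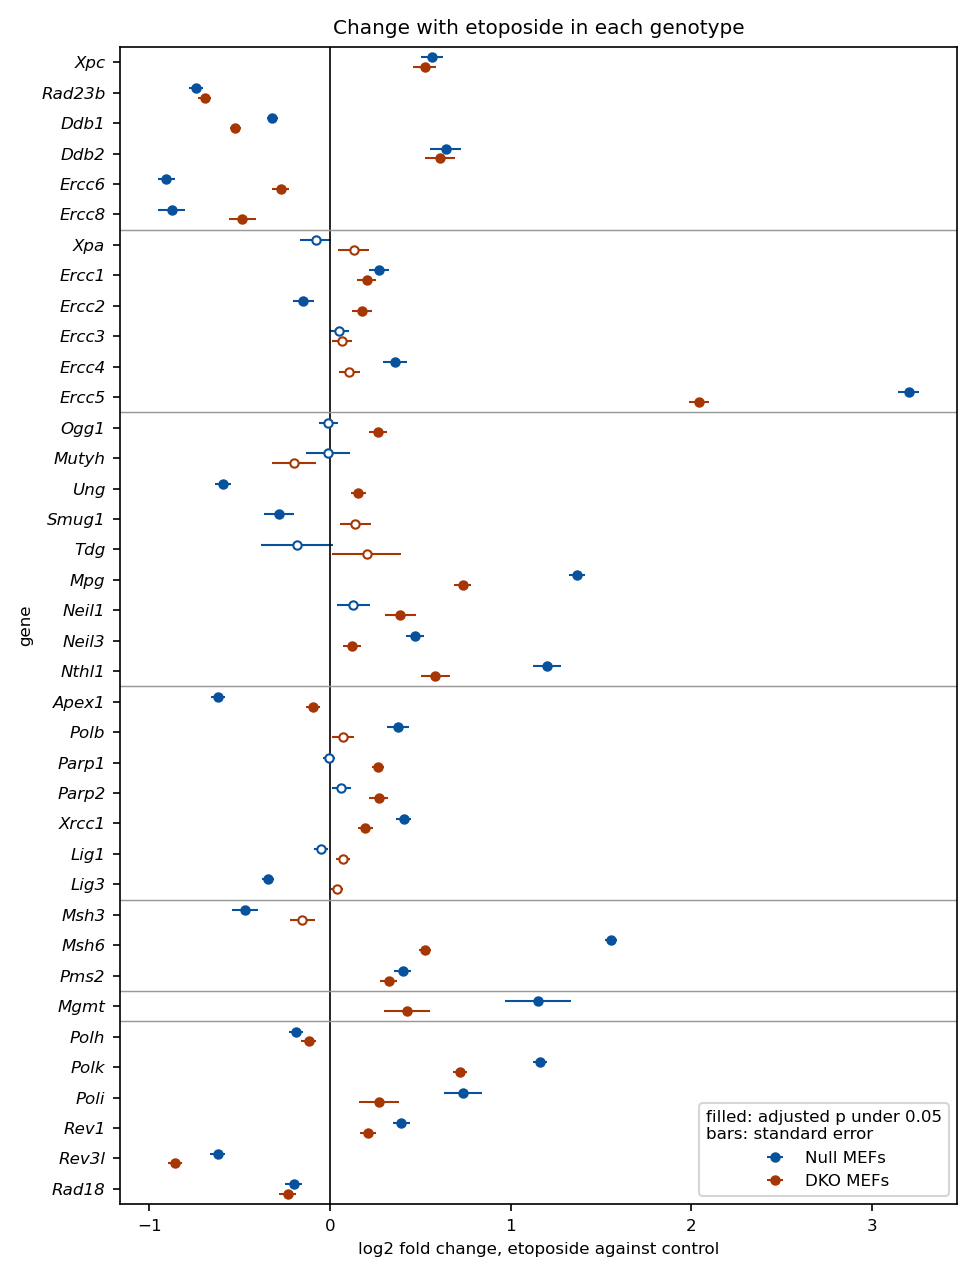
Log2 fold change with etoposide (x axis) for each of the 38 genes (y axis, by role) in Null (blue) and DKO MEFs (brown), with standard errors as bars and filled points at an adjusted p under 0.05. Ercc5 lies at 3.20 in Null and 2.04 in DKO MEFs, and Msh6 at 1.55 and 0.53.

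Among the 6 genes that recognise damage for nucleotide excision repair, 2 rose and 4 fell in both genotypes. Of all genes tested, 42.3% were higher and 37.2% lower in Null and 43.7% and 31.5% in DKO MEFs. Under library size alone 3 of the 6 fell in DKO MEFs, beside 3004 of the 15220 genes tested. Xpc and Ddb2, which find lesions across the genome, were the pair that rose. Ddb2 (chromosome 2, 91211572 to 91236982) was at 6.28, 6.04 and 7.20 CPM in the Null control libraries and 10.7, 9.73 and 9.87 CPM after etoposide. In DKO MEFs it went from 7.91, 7.62 and 8.62 to 12.8, 11.4 and 12.5 CPM. The etoposide libraries lay above the controls in each genotype, with log2 fold changes of 0.64 ± 0.085 and 0.61 ± 0.081, and the interaction of -0.03 was not past the threshold (adjusted p = 0.856 in the edgeR quasi-likelihood test, Benjamini-Hochberg adjusted). Of the exons of Ddb2, 23.8% overlap Acp2 on the opposite strand. Xpc had log2 fold changes of 0.56 and 0.52.

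Ercc6 and Ercc8, needed for repair of the transcribed strand, fell in both genotypes. Ercc6 (chromosome 14, 32513521 to 32580990) was at 44.7, 42.9 and 43.6 CPM in Null control and 23.7, 24.4 and 21.8 CPM in Null etoposide. The DKO libraries were lower than Null control without etoposide, at 27.2, 27.1 and 27.2 CPM, and were at 23, 22.5 and 22 CPM after it. Its log2 fold change was -0.91 ± 0.046 in Null and -0.27 ± 0.048 in DKO MEFs, with an interaction of 0.63 ± 0.067. Under library size alone the fall in DKO MEFs was not past the threshold (-0.00065). After etoposide the genotypes differed by -0.05, which was not past the threshold and had overlapping replicates, but was past it with DESeq2 (-0.11), with its size factors (-0.11) and with a stricter filter (-0.12). Ercc8 fell by 0.88 on the log2 scale in Null and by 0.49 in DKO MEFs, with an interaction of 0.39. Rad23b, the partner of Xpc, and Ddb1, the partner of Ddb2, fell in both genotypes, Rad23b with log2 fold changes of -0.74 and -0.69 and Ddb1 with -0.32 and -0.53. The promoters of the 2 genes with the largest falls and, further on, of the 2 with the largest rises in Null MEFs are shown because these genes moved in opposite directions. They come from RefSeq on GRCm38.p6 and run from 250 bases before to 50 after a gene's start. Capitals mark matches, on either strand, to CACGTG, TCACGTGA (which contains CACGTG), TTTCCCGC, TTTGGCGC or the p53 half-site. Here CACGTG lies upstream of both starts. Of the 9 of the 38 genes with CACGTG in a promoter, 1 rose and 4 fell in Null MEFs. Of the 23 with a promoter entry but no CACGTG, 11 rose and 8 fell, beside 42.3% and 37.2% of all genes tested. A link between motif and change was not tested.
Ercc6 (chr14:32513271-32513570, strand +): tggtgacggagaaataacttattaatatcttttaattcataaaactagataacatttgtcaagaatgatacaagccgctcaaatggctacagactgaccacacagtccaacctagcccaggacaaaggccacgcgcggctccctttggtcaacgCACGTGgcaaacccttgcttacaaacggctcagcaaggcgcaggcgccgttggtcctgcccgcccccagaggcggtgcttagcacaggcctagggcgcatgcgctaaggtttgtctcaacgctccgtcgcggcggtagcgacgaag
Ercc8 (chr13:108158488-108158787, strand +): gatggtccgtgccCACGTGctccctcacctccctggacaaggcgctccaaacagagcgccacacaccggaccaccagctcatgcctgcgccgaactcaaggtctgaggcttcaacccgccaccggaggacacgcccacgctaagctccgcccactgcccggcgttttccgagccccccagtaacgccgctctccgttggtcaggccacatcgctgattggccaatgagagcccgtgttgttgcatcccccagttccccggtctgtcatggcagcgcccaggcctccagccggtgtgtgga

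Of the 6 genes that open, check and cut the DNA around the lesion, 3 rose and 1 fell in Null MEFs, and 3 rose in DKO MEFs. The shares of all genes tested were 42.3% higher and 37.2% lower in Null and 43.7% higher in DKO MEFs. With library size alone 4 rose and none fell in Null MEFs, beside 7806 and 4396 of the 15220 genes tested. In DKO MEFs 6 rose under that scaling, beside 9316. Ercc5 (chromosome 1, 44147744 to 44181260), a nuclease that cuts the damaged strand on one side of the lesion, was at 13.4, 13 and 13.1 CPM in Null control and 125, 125 and 114 CPM in Null etoposide. In DKO MEFs it was at 17.3, 15.8 and 14.5 CPM without and 67.7, 65.5 and 63.5 CPM after etoposide. No treated library overlapped a control library, and the DKO etoposide libraries lay between the controls and the Null etoposide libraries. The log2 fold changes were 3.20 ± 0.057 and 2.04 ± 0.056, with adjusted p = 1.43e-09 for the interaction of -1.16 (edgeR quasi-likelihood test, Benjamini-Hochberg adjusted). The Ercc5 promoter, shown as 1 of the 2 genes with the largest rise, held none of the motifs.
Ercc5 (chr1:44147494-44147793, strand +): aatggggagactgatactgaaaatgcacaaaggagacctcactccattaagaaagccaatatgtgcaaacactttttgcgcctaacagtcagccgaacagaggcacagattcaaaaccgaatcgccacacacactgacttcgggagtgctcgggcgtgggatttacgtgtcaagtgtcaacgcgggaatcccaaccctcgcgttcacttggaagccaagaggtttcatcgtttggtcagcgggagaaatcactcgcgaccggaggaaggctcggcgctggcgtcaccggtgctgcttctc

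Ercc4 (chromosome 16, 13109684 to 13150617), which with Ercc1 cuts on the other side of the lesion, differed more between the genotypes than with etoposide. It was at 11.2, 12.1 and 13.3 CPM in Null control and 21, 20.9 and 21 CPM in DKO control, and at 16.7, 15 and 15.1 and 22.9, 22 and 22.8 CPM after etoposide. Every DKO library lay above every Null library. The rise in Null MEFs had a log2 fold change of 0.36 ± 0.066, and the value in DKO MEFs, 0.11, was not past the threshold but was with library size alone (0.38) and with a stricter filter (0.14). The interaction of -0.25 was lost without Null control replicate 1 (-0.19) or Null etoposide replicate 1 (-0.20) and under library size alone (-0.15).

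Ercc2 (chromosome 7, 19382010 to 19395694), a helicase of the transcription factor TFIIH, had small changes. It was at 34.7, 33.3 and 39.4 CPM in Null control and 32.5, 32.2 and 32.2 CPM in Null etoposide, and at 32.5, 32.2 and 30.2 and 36.4, 37 and 34.1 CPM in DKO MEFs. Null control replicate 3 stood above the other libraries. The log2 fold change in Null MEFs, -0.15 ± 0.057, was not past the threshold without Null control replicate 3 (-0.09), nor with DESeq2 (-0.10), with DESeq2's size factors (-0.10) or with a stricter filter (-0.06). In DKO MEFs the change of 0.18 ± 0.058 was lost without DKO control replicate 3 (0.14), DKO etoposide replicate 1 (0.15) or DKO etoposide replicate 2 (0.14). Under library size alone the value in Null MEFs turned to 0.019. Exons of Ercc2 overlap Gm26852 (24.6% of its exon length) and Klc3 (17.8%) on the opposite strand. Ercc1 rose in both genotypes, with log2 fold changes of 0.27 and 0.20, and the other helicase gene Ercc3 (0.05 and 0.07) and the scaffold gene Xpa (-0.08 and 0.13) were not past the threshold in either, but Xpa was without Null control replicate 2 (-0.18) in Null MEFs, and under library size alone Xpa rose in DKO MEFs and Ercc3 in both. Ercc3 also rose in Null MEFs with a stricter filter (0.14).

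The 9 glycosylase genes, whose products remove damaged bases, split in Null MEFs into 3 that rose, 2 that fell and 4 that were not past the threshold. In DKO MEFs 6 rose. Beside these, 42.3% of all genes tested were higher and 37.2% lower in Null MEFs, and 43.7% higher in DKO MEFs. Under library size alone 5 glycosylase genes were higher and 1 lower in Null MEFs, beside 7806 and 4396 of the 15220 genes tested. In DKO MEFs 8 were higher under that scaling, beside 9316. Mpg (chromosome 11, 32226505 to 32232700), which removes alkylated purines, was at 34.9, 33.3 and 33 CPM in Null control and 84.6, 84.7 and 92.3 CPM in Null etoposide. It went from 29.5, 28 and 27.6 to 48.1, 47.1 and 46.5 CPM in DKO MEFs. Treated libraries were above the controls in both genotypes, with log2 fold changes of 1.37 ± 0.044 and 0.73 ± 0.046. Of its exon length 35.7% overlaps Nprl3 on the opposite strand, and the strand setting of the counting is not given in the sources used here, so whether reads of such pairs were kept apart is unknown.

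Ung (chromosome 5, 114130386 to 114139323), which removes uracil, moved in opposite directions. It was at 36.1, 37.1 and 38.8 CPM in Null control and 24.1, 24.7 and 25.3 CPM in Null etoposide, against 41.1, 42.6 and 39.3 and 45.8, 46.2 and 45.4 CPM in DKO MEFs. The Null etoposide libraries were the lowest and the DKO etoposide libraries the highest of the 12. Its log2 fold changes were -0.59 ± 0.045 and 0.16 ± 0.043, with adjusted p = 1.73e-08 for the interaction of 0.75 (edgeR quasi-likelihood test, Benjamini-Hochberg adjusted). Another glycosylase gene, Nthl1, which acts on oxidised pyrimidines, rose by 1.20 on the log2 scale in Null and by 0.58 in DKO MEFs, with an interaction of -0.62 ± 0.11. Neil3 had log2 fold changes of 0.47 and 0.12, and the call in DKO MEFs was lost with DESeq2 (0.10), with DESeq2's size factors (0.10), without Rn45s, Rmrp and Rpph1 (0.10), with no filter (0.08) and in a fit of 6 libraries (0.09), as well as without DKO control replicate 2 (0.07), DKO control replicate 3 (0.10), DKO etoposide replicate 1 (0.08), DKO etoposide replicate 2 (0.12) or DKO etoposide replicate 3 (0.12). Smug1, a further uracil glycosylase, had -0.28 in Null and 0.14 in DKO MEFs, the latter not past the threshold, and under library size alone it rose in DKO MEFs (0.41) and the fall in Null MEFs was lost (-0.12). Ogg1, for oxidised guanine, had -0.01, not past the threshold but past it and above 0 with library size alone (0.16), and 0.27, and 10.6% of its exon length overlaps Camk1 on the opposite strand. Neil1 had 0.13, not past the threshold but past it with library size alone (0.30) and with a stricter filter (0.21), and 0.39. Mutyh, for adenine opposite oxidised guanine, was not past the threshold in any of the 5 comparisons, though its value in DKO MEFs was past it without DKO control replicate 1 (-0.31). Tdg, for thymine in mismatches, had means of 1.18 CPM in Null control, 1.04 in Null etoposide, 1.19 in DKO control and 1.34 in DKO etoposide. It was not past the threshold in any comparison, except with library size alone in DKO MEFs (0.47), and the annotation holds the pseudogene Tdg-ps, so its level is uncertain.

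Of the 7 genes that process the site after the base is removed or mend single-strand breaks, Xrcc1 and Polb rose and Apex1 and Lig3 fell in Null MEFs. In DKO MEFs Xrcc1, Parp1 and Parp2 rose and Apex1 fell. Of all genes tested, 42.3% rose and 37.2% fell in Null and 43.7% and 31.5% in DKO MEFs. Under library size alone 5 of the 7 rose and 2 fell in Null MEFs, beside 7806 and 4396 of the 15220 genes tested. In DKO MEFs all 7 rose under that scaling, beside 9316. Apex1 (chromosome 14, 50924968 to 50927139), the endonuclease for sites without a base, was at 152, 150.3 and 156 CPM in Null control. The other groups were at 98, 96.3 and 104 CPM in Null etoposide, 105, 102 and 104 CPM in DKO control and 95.8, 92.5 and 102 CPM in DKO etoposide. The Null control libraries stood apart above all others. The log2 fold change was -0.62 ± 0.039 in Null and -0.10 ± 0.039 in DKO MEFs. In DKO MEFs the replicates overlapped, and the call was lost without DKO control replicate 3 (-0.09) or DKO etoposide replicate 2 (-0.08) and with a stricter filter (-0.06) and turned to 0.18 under library size alone. Exons of Apex1 overlap Pip4p1 on the opposite strand over 61.7% of their length.

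Xrcc1 (chromosome 7, 24546289 to 24573440), the scaffold of single-strand break repair, was at 48.4, 47 and 46.1 CPM in Null control and 60.8, 62.8 and 64.3 CPM in Null etoposide, and at 42.2, 42 and 43.7 and 51.3, 46.4 and 48.9 CPM in DKO MEFs. All treated libraries were above the controls of their genotype, with log2 fold changes of 0.41 ± 0.042 and 0.20 ± 0.043. The gap-filling polymerase gene Polb had 0.38 in Null and 0.07 in DKO MEFs, past the threshold only with library size alone (0.34). Lig3, a ligase, fell in Null MEFs (-0.34) and had 0.04 in DKO MEFs, not past the threshold but past it with library size alone (0.31) and with a stricter filter (0.07). Its level was higher in DKO than in Null MEFs with and without etoposide, and 25.1% of its exon length overlaps Rffl on the opposite strand. The break sensors Parp1 and Parp2 had -0.01 and 0.06 in Null MEFs, neither past the threshold, although there both were past it and above 0 with a stricter filter (0.08 and 0.15) and with library size alone (0.16 and 0.23). They rose in DKO MEFs by 0.26 and 0.27 on the log2 scale. For Lig1, the ligase of replication, neither value passed the threshold (-0.05 and 0.07), but that in DKO MEFs did with library size alone (0.35) and with a stricter filter (0.11) and without DKO etoposide replicate 3 (0.11), and that in Null MEFs, above 0, with library size alone (0.11).

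In mismatch repair, Msh6 and Pms2 rose and Msh3 fell in Null MEFs, beside 42.3% higher and 37.2% lower among all genes tested. Msh6 (chromosome 17, 87975062 to 87990892), part of the complex that binds single mismatches, was at 173, 168 and 163 CPM in Null control and 505, 492 and 483 CPM in Null etoposide. In DKO MEFs the libraries were at 188, 189.9 and 188 CPM without and 267, 267 and 280.4 CPM after etoposide. Groups did not overlap, and the rise was 2.94-fold in Null and 1.44-fold in DKO MEFs, with log2 fold changes of 1.55 ± 0.034 and 0.53 ± 0.033 and adjusted p = 8.69e-12 for the interaction (edgeR quasi-likelihood test, Benjamini-Hochberg adjusted). Msh3 (chromosome 13, 92211872 to 92355003), which serves larger loops, was at 35.6, 32.1 and 31.5 CPM in Null control and 24.8, 25.1 and 21.6 CPM in Null etoposide. It was at 33.4, 31.1 and 35.2 and 32.5, 28 and 29.2 CPM in DKO MEFs, where the groups overlapped. The log2 fold changes were -0.47 ± 0.070 and -0.15 ± 0.070, the latter not past the threshold. It was past it with DESeq2 (-0.17), with its size factors (-0.17), with no filter (-0.19), with a replicate block (-0.15), in a fit of 6 libraries (-0.18) and without Rn45s, Rmrp and Rpph1 (-0.18), and also without DKO control replicate 2 (-0.23) or DKO etoposide replicate 1 (-0.23), but with library size alone its sign turned (0.12, not past the threshold). The interaction of 0.32 was lost without DKO control replicate 2 (0.25). Pms2, an endonuclease subunit, rose by 0.40 and 0.32 on the log2 scale. The Msh6 promoter held TTTCCCGC, in capitals, just after the start.
Msh6 (chr17:87974800-87975099, strand +): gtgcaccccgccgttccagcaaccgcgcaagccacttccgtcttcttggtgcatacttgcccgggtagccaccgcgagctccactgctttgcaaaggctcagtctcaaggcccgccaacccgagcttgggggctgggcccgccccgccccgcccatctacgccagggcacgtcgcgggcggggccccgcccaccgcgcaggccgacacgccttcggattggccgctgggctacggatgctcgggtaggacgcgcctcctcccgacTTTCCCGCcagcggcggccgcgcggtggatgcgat

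Mgmt (chromosome 7, 136894614 to 137130266), which takes alkyl groups off guanine, was low, at 1.39, 1.20 and 1.07 CPM in Null control and 2.87, 2.36 and 3.00 CPM in Null etoposide. The DKO libraries were higher, at 4.53, 4.32 and 3.37 CPM without and 6.31, 5.03 and 5.44 CPM after etoposide. Every DKO library lay above every Null library. It rose with etoposide by 1.15 ± 0.18 in Null and 0.43 ± 0.13 in DKO MEFs on the log2 scale.

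The translesion genes split evenly in each genotype, with Polk, Poli and Rev1 higher and Polh, Rev3l and Rad18 lower after etoposide. All genes tested had 42.3% higher and 37.2% lower in Null and 43.7% and 31.5% in DKO MEFs. Scaled by library size alone, 3 translesion genes were higher and 1 lower in Null MEFs, beside 7806 and 4396 of the 15220 genes tested. In DKO MEFs 4 were higher and 1 lower, beside 9316 and 3004, and Polh (0.15) and Rad18 (0.04) turned above 0. The falls of Polh (-0.022) and Rad18 (-0.03) in Null MEFs were lost under that scaling. Polk (chromosome 13, 96480690 to 96542579), which copies past bulky adducts, was at 40.5, 39.3 and 37.3 CPM in Null control and 88.2, 88 and 86.2 CPM in Null etoposide. It was at 27.7, 27.5 and 27.6 CPM in DKO control and 44.5, 45.7 and 45.9 CPM in DKO etoposide. Treated DKO libraries lay only a little above the Null controls, and the log2 fold changes were 1.16 ± 0.038 and 0.72 ± 0.040. Rev3l (chromosome 10, 39732118 to 39875211), the catalytic subunit of polymerase zeta, was at 103, 109 and 104 CPM in Null control and 73, 66.3 and 66 CPM in Null etoposide. In DKO MEFs it went from 166, 161 and 167 to 91.9, 90.5 and 90.1 CPM. It fell in both genotypes, with log2 fold changes of -0.62 ± 0.041 and -0.86 ± 0.040, and DKO control libraries were the highest. Poli had log2 fold changes of 0.73 and 0.27, and the call in DKO MEFs was lost with DESeq2's size factors (0.25), without Rn45s, Rmrp and Rpph1 (0.25), with no filter (0.23) and in a fit of 6 libraries (0.24), as well as without DKO control replicate 1 (0.25), DKO control replicate 2 (0.30), DKO control replicate 3 (0.21), DKO etoposide replicate 1 (0.17) or DKO etoposide replicate 2 (0.23). Rev1, with 26.6% of its exon length over Eif5b on the opposite strand, had 0.39 and 0.21, Polh -0.19 and -0.12 (the latter not past the threshold with a stricter filter, -0.08), and Rad18, the ligase that marks stalled forks, -0.20 and -0.23.

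**Figure D3:**
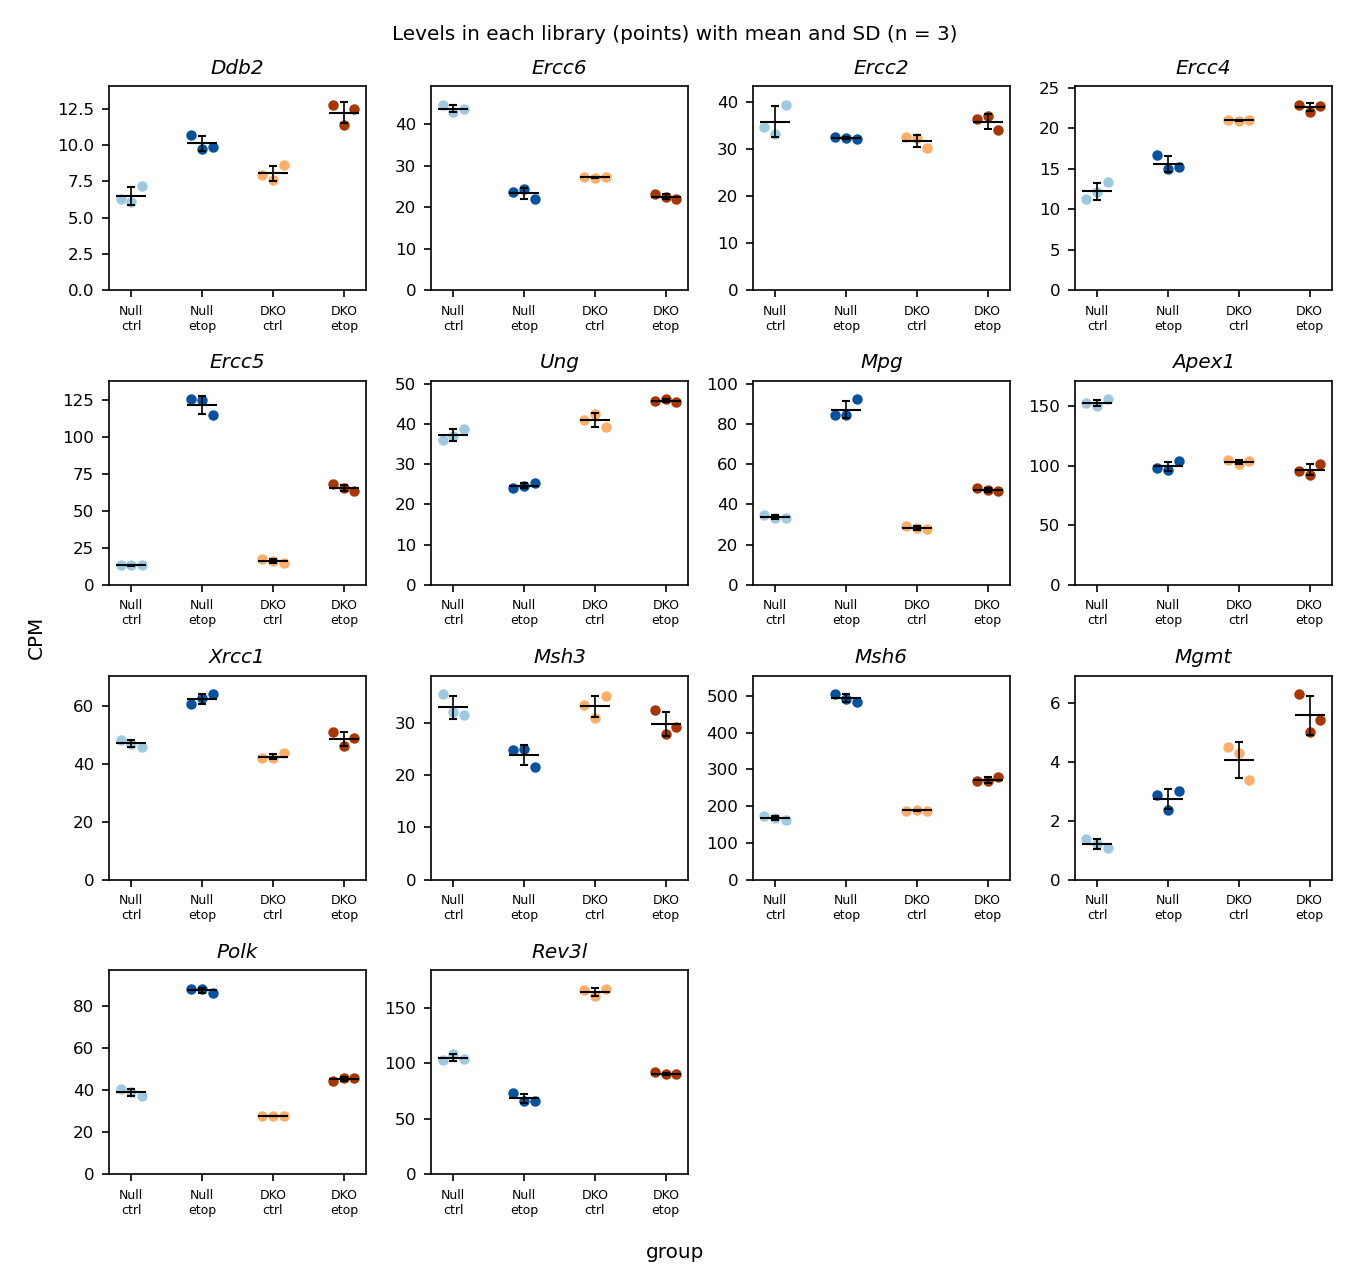
CPM in each library (points) of the 14 genes whose values are given by library, with the mean and SD (n = 3) of each group (x axis) on a linear axis from 0. Ercc5, Msh6, Mpg and Polk are highest in Null etoposide, and Mgmt and Ercc4 are higher in DKO than in Null MEFs under both conditions.

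Without etoposide the genotypes differed most in Mgmt, at 1.74 ± 0.17 on the log2 scale (DKO against Null), in Ercc4 at 0.78 ± 0.065 and in Ercc6 at -0.69 ± 0.046. Of the 38 genes 12 were higher and 15 lower in DKO MEFs, beside 33.3% and 33.4% of all genes tested. The median was 0.01 against -0.02 for all genes. Library size alone gave 6 higher and 17 lower, beside 3977 and 6393 of the 15220 genes tested. The median of all genes shifted by -0.12. Rev3l (0.65) and Lig3 (0.50) were also higher and Apex1 (-0.56) and Polk (-0.50) lower in DKO MEFs. The small difference of Ung (0.14) was lost without Null control replicate 1 (0.11) or DKO control replicate 2 (0.10) and under library size alone (0.017).

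After etoposide Mgmt was again higher in DKO MEFs at 1.02 ± 0.13, Polk was lower at -0.95 ± 0.038 and Ung higher at 0.89 ± 0.044. Ercc5 (-0.89), Mpg (-0.89), Lig3 (0.88) and Msh6 (-0.86) followed in size. In all 14 genes were higher and 13 lower, beside 37.5% and 36.6% of all genes tested, with a median of 0.06 near that of 0.00 for all genes. Library size alone gave 13 higher and 13 lower, beside 5539 and 5706 of the 15220 genes tested. The median of all genes shifted by -0.02. The count of higher genes went to 9 with DESeq2, with DESeq2's size factors and with a stricter filter. Beside these, 5002 and 5072 of the 15220 genes tested and 4830 of 12026 were higher. Ercc5 and Msh6 went from higher without to lower after etoposide, and Ercc2 and Ogg1 from lower to higher. For these 4 genes the interaction was past the threshold. The difference of Msh6 without etoposide was lost under library size alone (0.04). The difference of Ercc2 without etoposide (-0.18) was lost without Null control replicate 3 (-0.10) or DKO control replicate 3 (-0.14), and that after etoposide (0.15) was lost with DESeq2 (0.09), with DESeq2's size factors (0.09), without Rn45s, Rmrp and Rpph1 (0.12), with no filter (0.13) and with a stricter filter (0.08), as well as without Null etoposide replicate 1 (0.15), Null etoposide replicate 2 (0.14), Null etoposide replicate 3 (0.15), DKO etoposide replicate 1 (0.12) or DKO etoposide replicate 2 (0.11). The difference of Ogg1 without etoposide (-0.14) was lost without Null control replicate 1 (-0.13), Null control replicate 3 (-0.14) or DKO control replicate 3 (-0.12), and that after etoposide (0.13) was lost with DESeq2 (0.07), with DESeq2's size factors (0.07), without Rn45s, Rmrp and Rpph1 (0.11), with no filter (0.12) and with a stricter filter (0.07), as well as without Null etoposide replicate 1 (0.10), Null etoposide replicate 2 (0.13), DKO etoposide replicate 2 (0.09) or DKO etoposide replicate 3 (0.12).

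**Figure D4:**
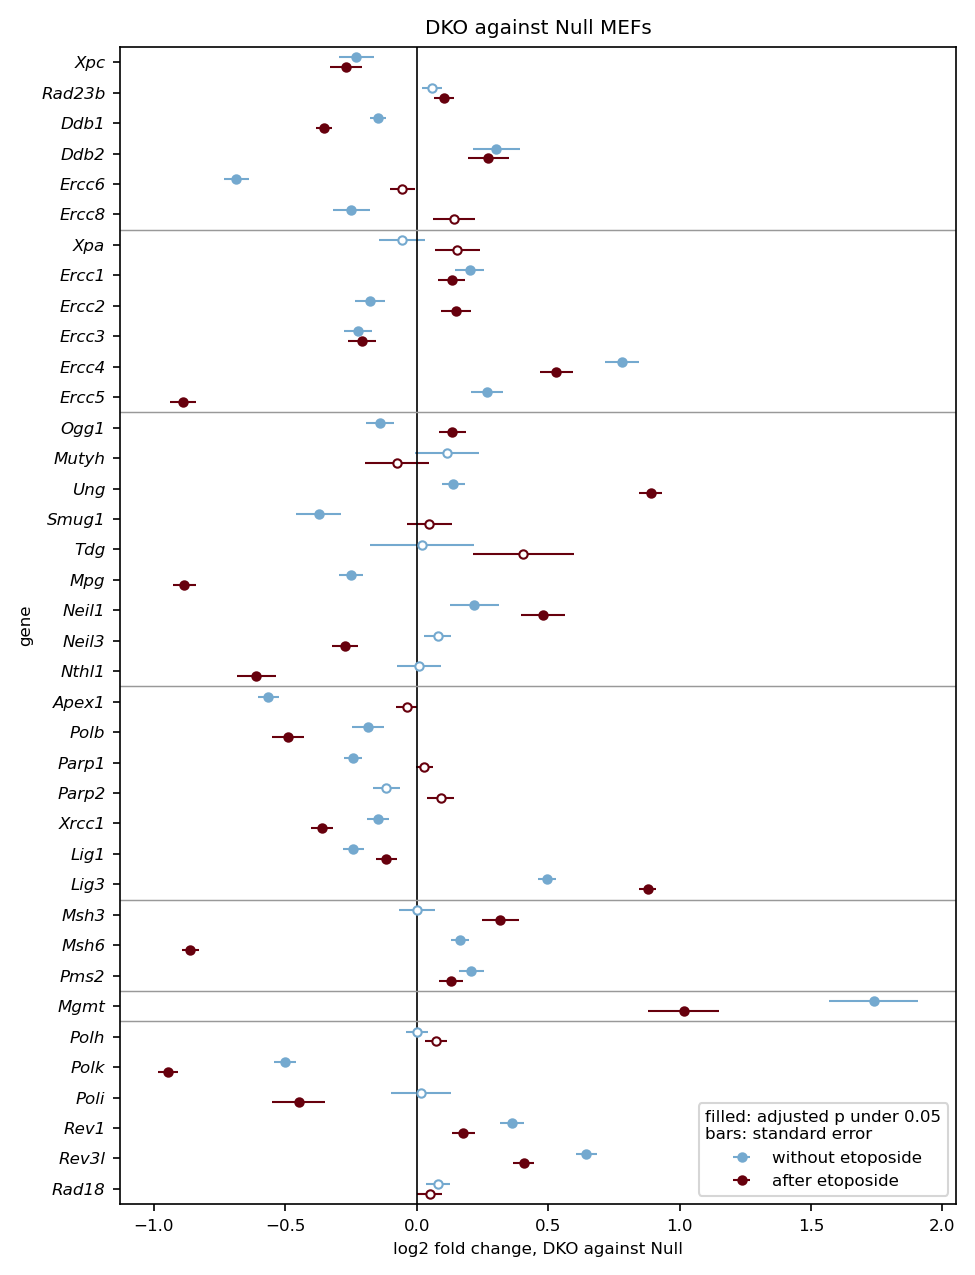
Log2 fold change of DKO against Null MEFs (x axis) for the 38 genes (y axis, by role), without etoposide (light blue) and after it (dark red), with standard errors and filled points at an adjusted p under 0.05. Mgmt lies farthest to the right at 1.74 and 1.02, and Ercc5 moves from 0.27 to -0.89.

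Per kb of exon the genes spanned a wide range of levels. Ddb1 was the highest in each group, at 181 CPM per kb in Null control, and Tdg the lowest, at 0.219 CPM per kb, with a median of 5.99. Apex1 (107) and Rad23b (76.4) followed in Null control. Msh6 rose from 38.7 to 114 CPM per kb in Null etoposide, where it came next after Ddb1 (145). Ercc5 went from 2.25 to 20.7 CPM per kb. The coefficient of variation between replicates had a median over the 38 genes of 3.46 to 4.20% by group and reached 20.6% for Tdg in Null control. Rank correlation of the log2 fold change with gene span over the 38 genes, which are not independent replicates, was -0.11 in Null and -0.32 in DKO MEFs.

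**Figure D5:**
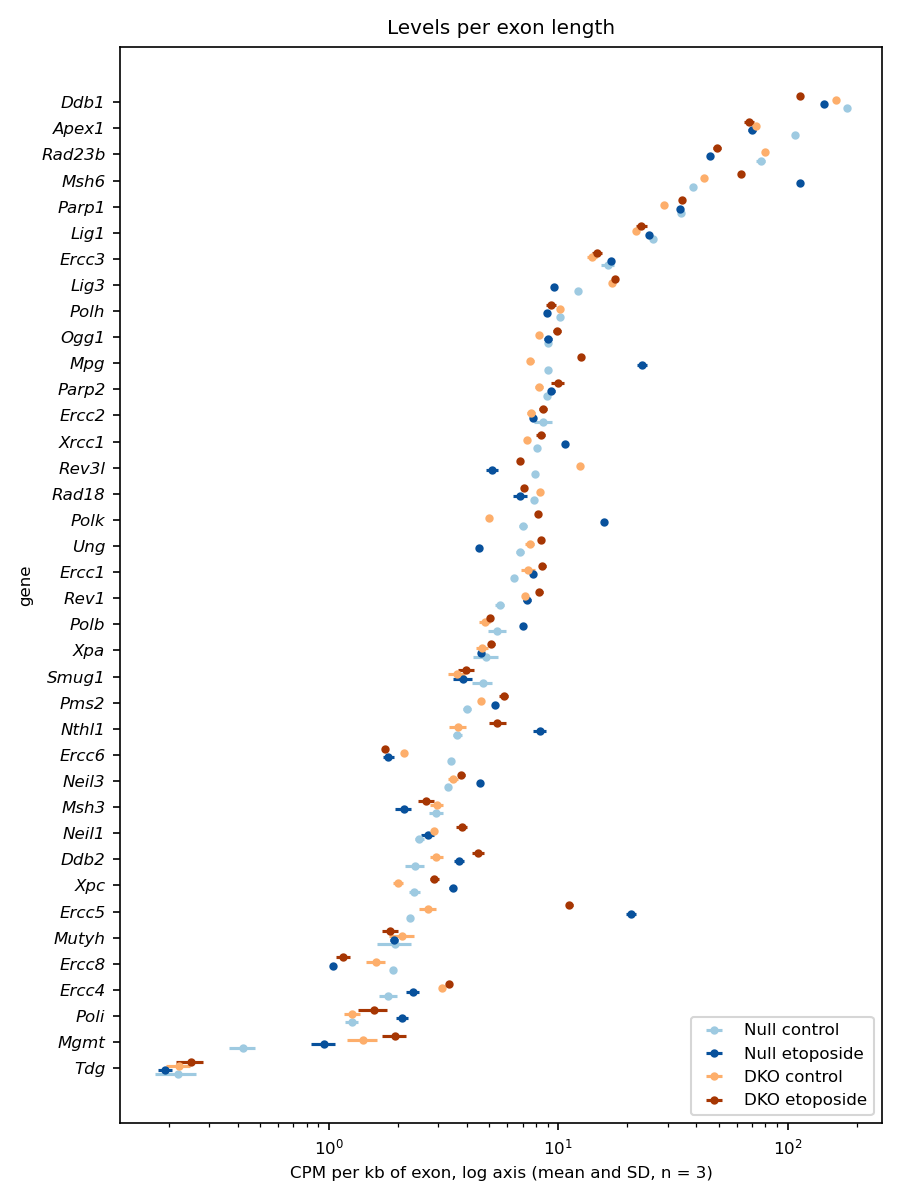
Level of each gene per kb of exon (x axis, log scale, CPM per kb, mean and SD, n = 3) in the 4 groups, ordered by the Null control level (y axis). Ddb1 is at the top at 181 and Tdg at the bottom at 0.219.

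Of the 38 genes 32 had an entry in the RefSeq promoter table, and Xpc, Ddb2, Ercc3, Polb, Poli and Rev3l had none. CACGTG, bound by TFEB, TFE3 and many other factors, was in a promoter of 9 of 32 genes (28.1%), Ercc6, Ercc8, Tdg, Apex1, Parp1, Parp2, Lig1, Lig3 and Rev1, beside 8.09% of the 27025 genes and 7.15% of the 32851 promoters in the table. TCACGTGA was in Tdg and Apex1 (6.25% of the 32 genes, beside 1.12% of genes and 0.974% of promoters in the table), TTTCCCGC in Msh6 (3.12%, beside 1.24% and 1.07%) and TTTGGCGC in Msh3 (3.12%, beside 0.585% and 0.514%). The p53 half-site was in Neil1, Neil3 and Polk (9.38%, beside 9.55% and 8.36%). A match is a description of these letters in the window, and whether any factor binds there was not tested.

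The 52 other genes of the same pathways also changed in both directions. In Null MEFs 24 rose and 15 fell (median 0.08), and in DKO MEFs 25 rose and 8 fell (median 0.13), beside 42.3% and 37.2% of all genes tested in Null and 43.7% and 31.5% in DKO MEFs. With library size alone the counts in Null MEFs were 32 and 8, beside 7806 and 4396 of the 15220 genes tested. In DKO MEFs they were 47 and 3, beside 9316 and 3004. The interaction was past the threshold and above 0 for 22 and below 0 for 9, beside 29.6% and 24.4% of all genes tested. Library size alone gave 31 and 6, beside 5734 and 3055 of the 15220 genes tested. Mbd4, a glycosylase for mismatched thymine, had the largest rise in Null MEFs, at 1.59 ± 0.062, against 1.02 in DKO MEFs. Mnat1, a subunit of the TFIIH kinase, had the largest fall, at -1.19 ± 0.058, against -0.94 in DKO MEFs. Pold4, a small subunit of polymerase delta, had the largest interaction past the threshold, at -0.90 ± 0.16. Against Null MEFs, DKO MEFs had 16 higher and 16 lower genes without etoposide, beside 33.3% and 33.4% of all genes tested. Library size alone gave 12 and 27, beside 3977 and 6393 of the 15220 genes tested. After etoposide the counts were 28 and 15, beside 37.5% and 36.6% of all genes tested. They were 28 and 15 with library size alone too, beside 5539 and 5706 of the 15220 genes tested.

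Genes of S phase and mitosis were counted as well, since some repair genes follow the cell cycle. Of 16 such genes 7 rose and 7 fell in Null MEFs, beside 42.3% and 37.2% of all genes tested, and 8 rose and 6 fell in DKO MEFs, beside 43.7% and 31.5%. Scaled by library size alone, the counts were 9 and 4 in Null MEFs, beside 7806 and 4396 of the 15220 genes tested. In DKO MEFs they were 11 and 5, beside 9316 and 3004. Without etoposide 8 had, past the threshold, a higher and 1 a lower level in DKO than in Null MEFs, beside 33.3% and 33.4% of all genes tested. After it 11 were higher and 4 lower, beside 37.5% and 36.6%. Library size alone gave 5 and 6 without etoposide, beside 3977 and 6393 of the 15220 genes tested. After etoposide it gave 11 and 5, beside 5539 and 5706. The interaction was past the threshold and above 0 for 3 and below 0 for 4, beside 29.6% and 24.4% of all genes tested. Library size alone gave 6 and 4, beside 5734 and 3055 of the 15220 genes tested. Ccne2 had the largest rise in Null MEFs (1.79 ± 0.054) and Top2a the largest fall (-0.93 ± 0.044), and Rrm2 the largest interaction (-0.78 ± 0.060). Their summed level was 5118 CPM in Null control, 4983 in Null etoposide, 5615 in DKO control and 5366 in DKO etoposide. The p53 targets Cdkn1a and Mdm2 rose by 2.94 and 3.92 on the log2 scale in Null and by 2.60 and 2.44 in DKO MEFs, with interactions of -0.34 and -1.48. Their part in the changes of the repair genes was not tested.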

How the data were processed

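RNA was made into stranded, paired-end libraries after depletion of ribosomal RNA. According to the methods, reads were checked with FastQC, trimmed with Cutadapt where required and aligned with HISAT2, and unique pairs were counted with HTSeq on GENCODE genes. The submitters' processing notes name mm10, HISAT2 and featureCounts. Versions and the strand setting are not given in the sources used here. The authors deposited whole counts per gene, and 5 summary lines were dropped before scaling and testing, of which reads on no annotated gene made up 20.2 to 27.3% of a library. The analysis used R 4.3.3 and edgeR 4.0.16: filterByExpr by group (15220 of 24421 genes), TMM, and one quasi-likelihood fit of all 12 libraries without a block, tested within each of 5 comparisons with Benjamini-Hochberg adjustment and a threshold of 0.05. Standard errors came from the fold change and its F statistic. DESeq2 1.42.0, limma-trend (limma 3.58.1), other scalings, other filters, a replicate block, a legacy fit added after seeing the data, fits of 6 libraries and leaving out each library were alternatives. The fits were tested on simulated data. Exon lengths, coordinates and overlaps are from GENCODE M21 on GRCm38. The members and lists were chosen with earlier results of these data known. Values by library are given for the genes with the highest and lowest log2 fold change of each role in Null MEFs, the 5 largest interactions and the 3 largest differences in each genotype comparison.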

Additional observations from a re-analysis of the deposited data

Results flagged for a closer look

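The change with etoposide differed between the genotypes for 25 of the 38 genes, by the interaction term of edgeR's quasi-likelihood fit, beside 29.6% of all genes tested with a difference above 0 and 24.4% with one below. The log2 difference was past the threshold and below 0, a smaller rise or larger fall in DKO MEFs, for Ercc5 (-1.16), Msh6 (-1.03), Mgmt (-0.72), Mpg (-0.64), Nthl1 (-0.62), Poli (-0.46), Polk (-0.45), Neil3 (-0.35), Polb (-0.30), Ercc4 (-0.25), Rev3l (-0.24), Xrcc1 (-0.21), Ddb1 (-0.20) and Rev1 (-0.18). It was past it and above 0 for Ung (0.75), Ercc6 (0.63), Apex1 (0.53), Smug1 (0.42), Ercc8 (0.39), Lig3 (0.38), Ercc2 (0.32), Msh3 (0.32), Ogg1 (0.28), Parp1 (0.27) and Parp2 (0.21). Calls that ended when 1 library was left out were that of Ercc4 without Null control replicate 1 (-0.19) or Null etoposide replicate 1 (-0.20), that of Parp2 without Null control replicate 1 (0.19), DKO control replicate 2 (0.17), Null etoposide replicate 3 (0.19), DKO etoposide replicate 1 (0.16) or DKO etoposide replicate 3 (0.18), that of Msh3 without DKO control replicate 2 (0.25), that of Poli without DKO etoposide replicate 3 (-0.35) and that of Rev1 without Null control replicate 3 (-0.15) or Null etoposide replicate 1 (-0.16). Under library size alone the calls of Ercc4 (-0.15), Polb (-0.20), Xrcc1 (-0.11), Poli (-0.36), Rev1 (-0.08) and Rev3l (-0.13) ended. The call of Parp2 also ended with DESeq2 (0.14), with its size factors (0.14) and with a stricter filter (0.16).

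Reads on no annotated gene, which enter no comparison, took a mean of 26.2% of the library in Null etoposide against 23.2% in Null control, and 21.9% in DKO etoposide against 20.6% in DKO control. In each genotype all 3 treated libraries were above all 3 controls. Their part in the results was not tested.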

How the results depend on the processing

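Of 1190 values of the 14 genes given by library, over 5 comparisons and all alternatives, 1138 kept their side of the threshold, 34 were no longer past it, 16 were newly past it and 2 called values turned sign. Sign turns of values called in neither fit were not counted. Those 2 came with library size alone, Ercc2 in Null MEFs (0.019) and Apex1 in DKO MEFs (0.18). Library size alone also moved the number of genes lower with etoposide in DKO MEFs from 8 to 4, of genes higher in DKO MEFs without etoposide from 12 to 6 and of called interactions below 0 from 14 to 8. The number of genes higher in DKO MEFs after etoposide went from 14 to 9 with DESeq2, with DESeq2's size factors and with the stricter filter. Among all 15220 genes tested it went from 5701 to 5002 with DESeq2 and to 5072 with its size factors. The stricter filter called 4830 of 12026 genes higher. The cause was not tested. With each library left out, the genes higher and lower numbered 16 in each case and 12 to 14 with etoposide in Null, 17 to 20 and 7 to 9 in DKO MEFs, 10 to 12 and 13 to 15 for DKO against Null MEFs without and 10 to 12 and 12 to 13 after etoposide, and 9 to 12 and 12 to 14 for the interaction. Those fits tested 15433 to 15778 genes. Of these, 6307 to 6476 were higher and 5541 to 5633 lower with etoposide in Null, and 5914 to 6457 and 4663 to 4858 in DKO MEFs. For DKO against Null MEFs they were 4776 to 4895 and 4803 to 4889 without and 5316 to 5561 and 5455 to 5631 after etoposide. The interaction had 4030 to 4421 and 3526 to 3735. The calls below refer to the 38 genes. The calls of 27, 21, 26, 29 and 25 of the 38 genes, in that order, were the same under every alternative.

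Deviations of same-numbered libraries had correlations from -0.03 to 0.04, and the best of the other-numbered ones from -0.01 to 0.05. With 3 libraries in a group these values cannot settle whether replicate numbers pair the samples. With the replicate number as a block, 16 genes were higher and 13 lower with etoposide in Null MEFs, beside 6460 and 5651 of the 15220 genes tested. Of 190 calls of the 38 genes over the 5 comparisons, 188 were as without the block. Depth limits Tdg and Mgmt most, with at least 56 and 69 counts in a library.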
